A study of Mus musculus with 6 samples.

Results

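Many miRNA hairpins of the miR-17-92, miR-106a-363 and miR-106b-25 clusters give a 5p guide strand in wild-type cells, and the 3p strand of the same hairpin is a passenger that is usually discarded. The 6 strands described here, mmu-miR-17-3p, mmu-miR-18a-3p, mmu-miR-20a-3p, mmu-miR-20b-3p, mmu-miR-93-3p and mmu-miR-106a-3p, are such passengers, chosen by name out of 298 miRNAs in the table. All 6 had hybrids, 535 of 15680 reads in all. In AGO2 CLASH, a miRNA and the mRNA fragment bound by the same AGO2 are ligated and read as 1 hybrid. Libraries came from P19, an embryonic carcinoma line of the mouse, with 3 WT libraries (Dicer +/+) and 3 HM libraries (Dicer HM/-). In HM cells CRISPR editing had inactivated 1 Dicer1 allele and placed the RNase IIIb hotspot change E1797G in the other. HM cells are 1 edited clonal line, so genotype and clone cannot be told apart, and all cells were untreated apart from the UV light and AGO2 immunoprecipitation of the assay.

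Dicer cuts the 3p arm of a hairpin with its RNase IIIa domain and the 5p arm with its RNase IIIb domain, and one strand of the product is kept by an Argonaute protein as the guide. The bases at positions 2 to 8 of the guide, the seed, lead target recognition, so a change of the loaded arm brings in another seed. The miR-17 family 5p guides are known from proliferating and pluripotent cells, in which they target cell cycle and signalling genes.

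The mature sequences below, from RefSeq (GRCm38.p6), are shown because the seed, in capitals, groups the strands by the sites they can read.
mmu-miR-17-3p: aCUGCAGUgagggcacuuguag
mmu-miR-20b-3p: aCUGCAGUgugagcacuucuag
mmu-miR-106a-3p: aCUGCAGUgccagcacuucuuac
mmu-miR-20a-3p: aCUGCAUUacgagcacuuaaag
mmu-miR-18a-3p: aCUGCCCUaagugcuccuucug
mmu-miR-93-3p: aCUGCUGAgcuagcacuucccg
mmu-miR-17-5p: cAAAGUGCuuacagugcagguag

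miR-17-3p, miR-106a-3p and miR-20b-3p carried 1 seed, and the other 3 strands each had a seed of their own. All 6 began with the same 5 bases. Positions counted from the 5′ end were identical between miR-20b-3p and miR-17-3p at 19 of 22 places, so the split of reads between them rested on the assignment made by the authors. The miR-17-5p sequence is shown for contrast, with the seed that 5 of the 6 partner 5p strands share. Those 5 strands are also close to each other in the rest of their sequence. Their read counts, and the 3p shares of their hairpins, rested on the same assignment by the authors. miR-17-3p lies at chr14:115043721-115043742 on the plus strand, with miR-18a-3p (chr14:115043908-115043929) and miR-20a-3p (chr14:115044219-115044240) in the same cluster. miR-20b-3p (chrX:52742122-52742143) and miR-106a-3p (chrX:52742505-52742527) belong to the miR-106a-363 cluster, and miR-93-3p (chr5:138165536-138165557) to the miR-106b-25 cluster, all 3 on the minus strand. Of 535 sequenced reads of the 6 strands, 524 (97.9%) began at the reference 5′ end, and 4 of the 45 reads of miR-106a-3p began earlier.

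WT libraries held 1621 to 2331 hybrid reads, of which 701 to 1091 were 3p hybrids, and HM libraries held 1661 to 5341 with 1585 to 5113 3p hybrids. As a check of the cell type, miRNAs of pluripotent cells, those of the miR-290 and miR-302 clusters, supplied 34.5% to 38.7% of the hybrids in WT and 56.9% to 59.1% in HM libraries, and 12 of their 14 listed hairpins were seen. Where no read was found, up to 3 could have been missed, or 0.0587% to 0.428% of a library's 3p hybrids. Intervals and this floor cover counting error only. Nearly all hybrids of the 6 strands were single molecules at this depth, since 523 of their 529 distinct sequences had 1 read, and 6 of the 512 distinct sequences in HM were seen in more than 1 HM library.

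The first question was how much of the AGO2-bound 3p pool the 6 strands took when RNase IIIb was mutated. Their reads numbered 5, 3 and 3 over the WT replicates and 85, 287 and 152 over the HM replicates. As a share of 3p hybrids this came to 0.416% ± 0.136 for WT and 5.56% ± 0.172 for HM (SD, n = 3 each). The HM libraries were close to each other, between 5.36% and 5.69%, and the highest WT library was at 0.546%.

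All 6 strands passed the test toward more hybrids in HM (edgeR quasi-likelihood test on reads relative to 3p totals, Benjamini-Hochberg adjusted p under 0.05), where 16% of the 94 miRNAs tested did so and 59.6% changed in either direction. Their HM and WT libraries did not overlap, which was the case for 21.3% of the miRNAs tested. None of the 6 had 10 reads in WT, so all of them entered the test through their HM reads. miR-106a-3p, miR-20a-3p, miR-18a-3p and miR-93-3p had 0 WT reads and could be called in no other direction. The shares over all miRNAs tested are therefore not a like-for-like comparison. miR-17-3p rose from 2.54 ± 1.59 to 25.4 ± 1.24 reads per 1000 3p hybrids (SD, n = 3 each), from read counts of 4, 2 and 1 (WT) and 38, 133 and 70 (HM). The pooled rate ratio was 9.95 (95% exact interval 4.76 to 25.0) and the edgeR adjusted p was 2.14e-13. miR-20b-3p rose from 1.62 ± 1.07 to 19.5 ± 1.68 per 1000 (SD, n = 3 each), from read counts of 1, 1 and 2 (WT) and 34, 94 and 50 (HM). Its pooled rate ratio was 12.9 (95% exact interval 4.94 to 47.7, edgeR adjusted p = 2.42e-11). These strands were therefore present in WT at a few reads.

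The other 4 strands had no read in any WT library. miR-106a-3p had 5, 29 and 11 reads in HM libraries 1 to 3, which is 4.32 ± 1.27 per 1000 3p hybrids (SD, n = 3) and at least 1.26-fold above WT when each WT library is set at 3 reads (edgeR adjusted p = 1.72e-05). miR-20a-3p had 4, 11 and 9 reads (2.68 ± 0.625 per 1000, edgeR adjusted p = 0.00204). miR-18a-3p had 2, 12 and 5 reads (1.83 ± 0.544 per 1000, edgeR adjusted p = 0.00889). miR-93-3p had 2, 8 and 7 reads (1.82 ± 0.714 per 1000, edgeR adjusted p = 0.0148). At these counts no fold can be bounded for the last 3. The calls of miR-18a-3p and miR-93-3p were lost with DESeq2 (adjusted p = 0.0720 and 0.0773) and without WT replicate 2 (edgeR adjusted p = 0.0765 and 0.0980), and both strands fell under the minimum of 10 reads without HM replicate 2.

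**Figure D1:**
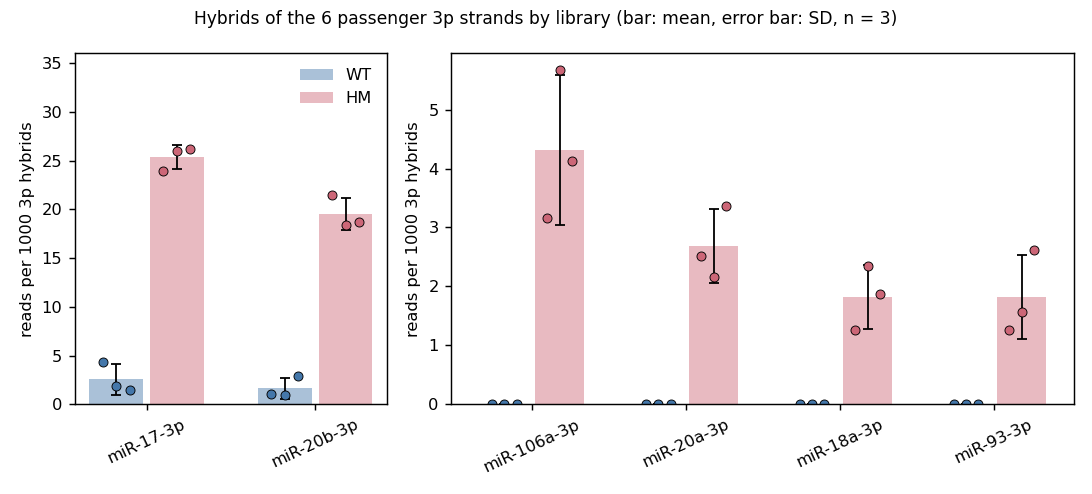
Reads per 1000 3p hybrids of each of the 6 passenger 3p strands (vertical axes, linear, a separate scale in each panel) in WT and HM libraries; bars are means, error bars SD over 3 libraries and points the libraries. Every HM point lies above every WT point, and the 4 strands in the right panel are at 0 in WT.

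In HM the order of the strands ran from miR-17-3p over miR-20b-3p, then miR-106a-3p, miR-20a-3p and miR-18a-3p, to miR-93-3p. The libraries of miR-17-3p (24.0 to 26.2 per 1000 3p hybrids) and miR-20b-3p (18.4 to 21.5) did not overlap, and both lay above the 3.15 to 5.67 of miR-106a-3p. The ranges of miR-106a-3p and miR-20a-3p overlapped, as did those of miR-20a-3p, miR-18a-3p and miR-93-3p. Within each HM library miR-106a-3p had more reads than miR-20a-3p (5, 29 and 11 against 4, 11 and 9). miR-20a-3p in turn had more than miR-93-3p (2, 8 and 7). The order of miR-18a-3p (2, 12 and 5) against miR-20a-3p and against miR-93-3p varied between libraries, and none of these differences was tested.

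This order was not that of the 5p partners in WT. Per 1000 hybrids of any arm, miR-20b-5p led in WT with 102.2 ± 13.8 (SD, n = 3), followed by miR-93-5p with 75.9 ± 3.65, miR-106a-5p with 64.1 ± 2.91, miR-17-5p with 38.2 ± 0.383, miR-20a-5p with 24.0 ± 2.40 and miR-18a-5p with 11.0 ± 1.68. Set against the WT level of its 5p partner on this scale, miR-17-3p in HM reached 63.5%, miR-20b-3p 18.3%, miR-18a-3p 15.8%, miR-20a-3p 10.7%, miR-106a-3p 6.43% and miR-93-3p 2.29%. The totals on this scale include 5p hybrids, which numbered 911 to 1233 per WT library and 70 to 194 per HM library. Loss of 5p hybrids raises the rate of any 3p strand in HM, so these percentages compare unlike totals. The hairpin of miR-93, whose 5p strand was the second most frequent of the 6 in WT, gave the fewest 3p hybrids in HM in total (17). That of miR-18a was close to it (19) and was lower in HM replicate 3.

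Within a hairpin the 3p share does not depend on the library total. It was higher in HM in all 6 hairpins, and HM and WT libraries did not overlap in any of them, where 62.5% of the 32 hairpins with both arms seen and at least 10 reads also showed a higher share without overlap. Each hairpin gave a two-sided exact permutation p of 0.1, the smallest that 3 against 3 libraries allow. The 3p share of miR-17 was 5.19%, 2.17% and 1.59% in WT and 100%, 99.3% and 100% in HM libraries, with 38, 134 and 70 reads of the hairpin in HM. The share of miR-18a was 0% in every WT library and 97.4% ± 4.44 (SD, n = 3) in HM, on only 2, 13 and 5 reads. For miR-93 it was 82.2% ± 16.8 on 3, 10 and 7 reads, and for miR-106a 72.9% ± 10.2 on 8, 35 and 15 reads (SD, n = 3 each).

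A sizeable 5p remainder was kept by miR-20b and miR-20a. miR-20b-5p still had 17, 55 and 34 reads in HM, so that the 3p share of the hairpin was 63.1% ± 3.57 (SD, n = 3). miR-20a-5p had 10, 15 and 12 reads against 4, 11 and 9 of miR-20a-3p, and 5p hybrids stayed in the majority at a 3p share of 37.9% ± 8.09 (SD, n = 3). miR-17-5p and miR-18a-5p were each down to 1 read in the 3 HM libraries together.

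**Figure D2:**
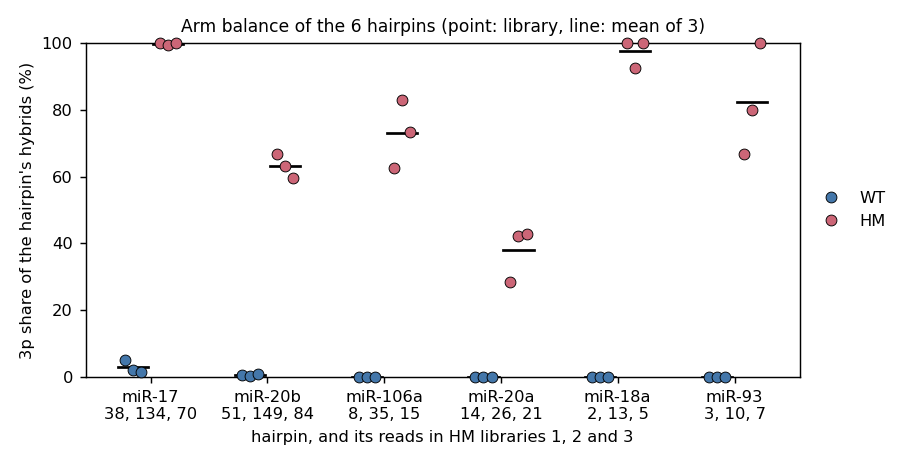
Share of 3p reads among all hybrids of a hairpin (vertical axis, %) for the 6 hairpins, with points for libraries, lines for means of 3 and the reads of the hairpin in HM libraries under its name. All WT points lie at or below 5.19%, and miR-20a is the hairpin whose HM points stay under 50%.

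The clusters also hold 3p strands outside the 6, and 6 of those had at least 10 reads. miR-18b-3p, from the miR-106a-363 cluster, went from 0, 2 and 1 reads to 4, 22 and 21 (log2 fold change 2.13, SE 0.70, edgeR adjusted p = 0.00524), and like the 6 strands it was the minor arm in WT, with a 3p share of its hairpin of 0%, 33.3% and 25% (on 1, 6 and 4 reads) against 80% to 95.7% in HM. miR-363-3p went from 9, 2 and 5 to 17, 67 and 42 (log2 fold change 1.17, SE 0.39, edgeR adjusted p = 0.00615), and miR-17-3p stood at 3.28 (SE 0.42) on this scale. The other 4 lay between -0.40 (miR-92a-3p) and 0.43 (miR-19b-3p). Whether these 4 were higher or lower is not stated, since the median log2 fold change of the 94 miRNAs moved from -0.72 with 3p totals to 0.33 with totals of all hybrids. The 6 passengers were called higher under both scales. miR-106b-3p, the passenger of the hairpin beside miR-93, had 0, 4 and 0 reads in HM and was not tested.

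The second question was which genes the 6 strands were joined to. In HM they were joined to 351 genes and in WT to 11, of which 8 were seen in both, so that 343 genes were gained. Thinned to the WT total of 3p hybrids, 122 of these genes would be expected, and 55 were seen in at least 2 HM libraries. With each library at 701 3p hybrids, the expected number of genes was 2.92 ± 0.952 in WT and 36.5 ± 1.71 in HM (SD, n = 3 each). These numbers follow the number of reads of the 6 strands and are not independent of it.

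miR-17-3p was joined to 178 genes in HM, miR-20b-3p to 144, miR-106a-3p to 38, miR-20a-3p to 20, miR-93-3p to 16 and miR-18a-3p to 11. The targets were spread thinly, with a single HM read on 82.0% of the genes of miR-17-3p and 87.5% of those of miR-20b-3p. The leading gene took 3.73% of the HM reads of miR-17-3p (Nufip2) and 7.30% of those of miR-20b-3p (Atpif1), but 42.1% of the 19 reads of miR-18a-3p (Baz2a). Over the 6 strands, 60 genes were seen in at least 2 HM libraries and 14 in all 3.

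The fragments below were joined to the strands in HM and are shown because their genes recurred or are listed targets. The capitals mark the 6-nt match to the seed (bases 2 to 7 of the strand), and the first bases of a fragment may still belong to the miRNA, since the boundary is the one the authors set.
Atpif1, joined to miR-20b-3p: tgagatagagcgtCTGCAGaagc
Atpif1, joined to miR-17-3p: cagatagagcgtCTGCAGaagca
Atpif1, joined to miR-106a-3p: agatagagcgtCTGCAGaag
Nufip2, joined to miR-17-3p: ccttgccaagagttCTGCAGcct
Rnf144a, joined to miR-17-3p: ctcagtgtccggcttgCTGCAGagat
Nxt1, joined to miR-17-3p: taagcccagctCTGCAGaga
G3bp1, joined to miR-17-3p: acacagccccggctcCTGCAGaatg
Vim, joined to miR-17-3p: ttcaagtgcctttaCTGCAGtttt
Vim, joined to miR-20b-3p: taagtgcctttaCTGCAGtttt
Baz2a, joined to miR-18a-3p: gctggagcacagaatGGGCAGagag
Otud6b, joined to miR-20a-3p: ggtgatgctgaagtaATGCAGaaa

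Atpif1, which encodes an inhibitor of the mitochondrial ATP synthase, was the most frequent target. Its pair with miR-20b-3p had no WT read and 4, 5 and 4 HM reads, all 13 with the seed match. miR-17-3p and miR-106a-3p were joined to the same stretch of Atpif1 with 1 read each, and no other miRNA had a hybrid with the gene in any library. The pair of miR-20b-3p and Atpif1 was not called (edgeR adjusted p = 0.153), nor was the pair of miR-17-3p and Nufip2 (log2 fold change 1.30, SE 1.42, edgeR adjusted p = 0.707). No other pair of the 6 strands reached 10 reads, so 0 of 2 pairs were called where 15.7% of all 140 pairs tested were, 2.14% in the direction of HM. At an unadjusted p under 0.05, 1 of the 2 passed in edgeR, and DESeq2 called 0 after adjustment. Scaled to all hybrids, the pair with Atpif1 was called (edgeR adjusted p = 0.0208).

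Among the other recurrent targets of miR-17-3p, Nufip2, which encodes an RNA-binding partner of FMRP, was read 1, 0 and 0 times over the WT replicates and 1, 2 and 6 times over the HM replicates, all 10 of them with the seed match. Rnf144a, a ubiquitin ligase gene, had 1, 4 and 1 reads in HM, and Nxt1, for a cofactor of mRNA export, had 1, 2 and 2. G3bp1, which encodes a core protein of stress granules, had 2, 1 and 1. Every one of these reads held the seed match, and the last 3 genes had 0 reads of miR-17-3p in WT. Rnf144a and Nxt1 had no hybrid of a miRNA outside the 6 strands in any of the 6 libraries, which was the case for 95 of the 351 genes (27.1%).

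miR-20b-3p was further joined to Dnajc18, for a J-domain co-chaperone (0, 3 and 1 reads in HM), Akap13, for an anchoring protein of protein kinase A (2, 1 and 0), Efnb2, for ephrin-B2 (0, 2 and 1), and Vim (0, 1 and 2). The recurrent targets of miR-106a-3p were Ptar1 (1, 5 and 1 reads) and Med26, a Mediator subunit gene (1, 1 and 0). For miR-18a-3p it was Baz2a, which encodes a subunit of the complex that silences ribosomal DNA repeats, with 1, 5 and 2 reads that all held the seed match. miR-20a-3p had 2 reads each on Otud6b, for a deubiquitinating enzyme, and Zbtb41, for a zinc finger protein, and miR-93-3p 2 reads on Mgea5, which encodes the enzyme that removes O-GlcNAc from proteins. WT libraries had 0 reads of each of these pairs. The seed match was in 0 reads of the pairs with Dnajc18, Akap13, Ptar1, Zbtb41 and Mgea5. It was in 2 of the 3 reads on Efnb2 and in every read of the pairs with Vim, Med26 and Otud6b.

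**Figure D3:**
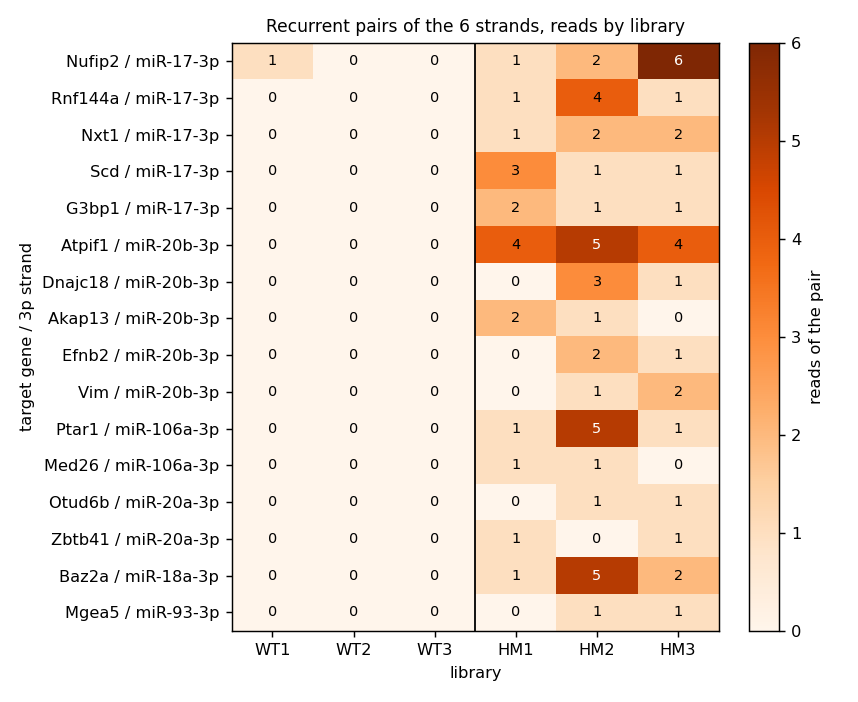
Reads in each library (columns, WT then HM) of the pairs of a 3p strand and a gene seen in at least 2 HM libraries, at most 5 for each strand (rows). The only WT read is that of Nufip2 with miR-17-3p, and Atpif1 with miR-20b-3p has 4 to 5 reads in every HM library.

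Of 6 genes listed as known targets of miR-17-3p (Vim, Galnt7, Timp3, Sod2, Gpx2 and Txnrd2), Vim was the one joined to the 6 strands. The paper picked Vim as a target with the help of its CLASH hybrids, so finding it here was no independent result. Vim, the gene of the intermediate filament protein vimentin, had 0 reads in WT, 2 reads of miR-17-3p in HM replicate 2 and 3 reads of miR-20b-3p over HM replicates 2 and 3. All 5 reads held the seed match in the same stretch. A duplex predicted by RNAduplex had 19 consecutive base pairs between miR-17-3p and the fragment shown above, 2 of them G:U, at -33.5 kcal/mol, the lowest energy of the 505 hybrids of the 6 strands in HM that could be folded. The duplex of miR-20b-3p at the same place had a longest run of 9 pairs and -21.3 kcal/mol. The median over all 505 was -14.8 kcal/mol, with a longest run of 12 or more pairs in 47 (9.31%).

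The seed was then looked for in all fragments. In HM, 201 of 524 reads of the 6 strands (38.4%, 95% exact interval 34.2 to 42.7) held the 6-nt match, with 38.8%, 36.9% and 40.8% in HM libraries 1 to 3. The share was 41.1% for miR-17-3p (99 of 241 reads), 36.5% for miR-20b-3p (65 of 178), 33.3% for miR-20a-3p (8 of 24), 47.4% for miR-18a-3p (9 of 19) and 11.8% for miR-93-3p (2 of 17). For miR-106a-3p it was 18 of 45 reads. The 95% exact intervals were wide for miR-20a-3p (15.6 to 55.3%), miR-18a-3p (24.4 to 71.1%) and miR-93-3p (1.46 to 36.4%). Of the 9 matched reads of miR-18a-3p, 8 were on Baz2a, so its share rested largely on 1 gene. The intervals count such reads as independent. In WT, 6 of the 11 reads held it.

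The letters of the match depended on the strand, except that miR-93-3p had too few matched reads to tell (2 of 17). The match CTGCAG of the 3 strands with 1 seed stood in 0.722% of the HM fragments of all miRNAs outside the 6. It also stood in 1 of 24 fragments of miR-20a-3p, 2 of 19 of miR-18a-3p and 1 of 17 of miR-93-3p. The match ATGCAG of miR-20a-3p stood in 0.496% of the fragments of the miRNAs outside the 6, GGGCAG of miR-18a-3p in 1.68% and CAGCAG of miR-93-3p in 0.431%. CTGCAG reads the same on both strands of DNA, the others do not, and all were searched on the strand of the fragment. The authors kept only miRNA and gene combinations that TargetScan predicts, and the part of that filter in these shares was not tested.

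**Figure D4:**
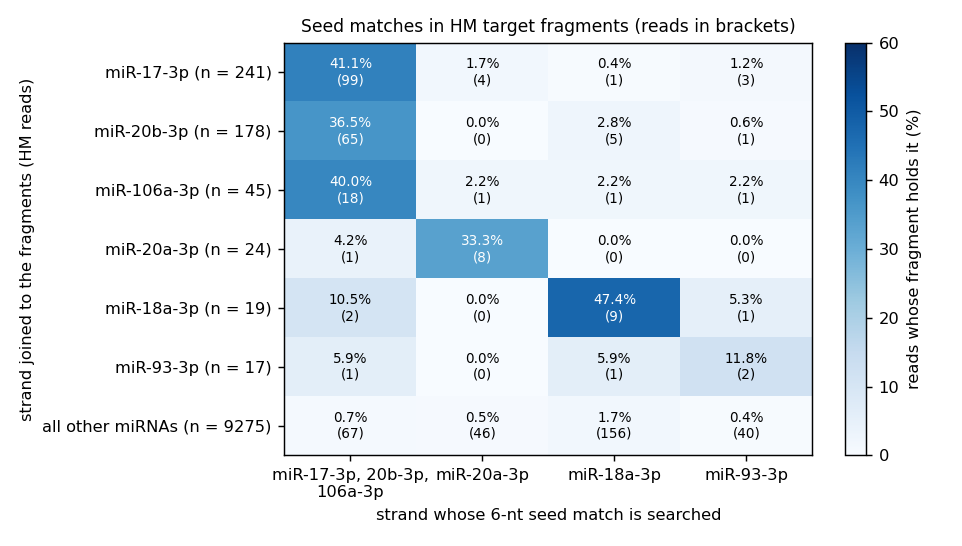
Share of HM reads (colour and text, %, reads in brackets) whose fragment holds the 6-nt seed match named below each column, for fragments joined to each strand (rows, with the number of reads). The shares on matching strand and site are 11.8% to 47.4%, and those of all other miRNAs lie between 0.431% and 1.68%. The 47.4% of miR-18a-3p rests largely on reads of Baz2a. Among the 6 strands, shares on a site that is not their own reach 10.5% (2 of 19 reads, miR-18a-3p fragments with CTGCAG).

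The form of the site was uneven. An A followed the match in 160 of the 201 reads, while a match reaching base 8 was found in 63. With the seed taken from the miRNA as sequenced, 77.4% ± 6.50 of the matches were followed by A and 29.7% ± 5.43 also paired base 8, against 59.8% ± 0.790 and 69.4% ± 1.17 for all other 3p-miRNAs (SD over 3 HM libraries each). On both measures the ranges of the 3 libraries did not overlap. Where CTGCAG occurred in fragments of miRNAs outside the 6, counted over WT and HM libraries together, an A followed it in 28 of 113 reads. The share with any match to their own seed was 39.6% ± 2.35 for the 6 strands and 57.8% ± 1.44 for the other 3p-miRNAs (SD over 3 HM libraries each), and these differences were not tested. Among the 37 other 3p-miRNAs with at least 17 HM reads this share ranged from 26.1% to 94.4%, with a median of 64.1%. Genes seen in at least 2 HM libraries had the match in 51.2% of 207 reads (95% exact interval 44.2 to 58.2), and genes of 1 library in 95 of 317 reads (25.0 to 35.3). These intervals count reads as independent, although reads of 1 gene often shared a site, as all 15 on Atpif1 held the match. They do not cover the spread over genes.

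Some recurrent targets had no match to bases 2 to 7 in any of their reads. The fragments below are shown because they carry a stretch complementary to the 3′ part of the strand, marked by the capitals.
Scd, joined to miR-17-3p: ctgctCAAGTGCCCgtagctgatggatgg
Mgea5, joined to miR-93-3p: tgttGGGAAGTGCagtaattcctggg
Ptar1, joined to miR-106a-3p: tctgaggttGTGCTGGataaactgcaaggt

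Scd, which encodes stearoyl-CoA desaturase, had 3, 1 and 1 reads of miR-17-3p in HM, and all 5 held a 9-nt stretch complementary to bases 11 to 19 of the strand. Both reads of Mgea5 held a 9-nt complement of bases 13 to 21 of miR-93-3p. All 7 reads of miR-106a-3p on Ptar1 held a 7-nt complement of bases 10 to 16, and the fragment shown also holds ACTGCA, which pairs with bases 3 to 8 of the seed. Over the 6 strands, 46 of the 323 HM reads without a seed match (14.2%) held at least 7 bases complementary to base 9 or later of their strand, with 17.3%, 13.8% and 13.3% in HM libraries 1 to 3. These reads were on 29 genes, 6 of them seen in at least 2 HM libraries. The same stretches stood in 1.18% of the fragments of other miRNAs in HM, weighted by strand. For miR-18a-3p they stood in 11.1% of those fragments and for miR-20a-3p in 0 of its 16 reads without a seed match. This search was chosen after the fragments had been seen.

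The target lists of the strands were then compared. In HM, 28 genes were joined to both miR-17-3p and miR-20b-3p, which is 15.7% of the first list and 19.4% of the second. miR-106a-3p shared 13 genes with miR-17-3p (34.2% of its own 38 genes and 7.30% of the longer list) and 8 with miR-20b-3p (21.1% and 5.56%). In 26 of these 49 cases the fragments had at least 15 bases in common, so hybrids named for both strands lay on the same stretch. The 49 cases cover 39 genes, 18 of them with a common fragment. A read of 1 strand named as another with the same seed would give the same picture, and this was not tested. Over the 12 pairs of strands with different seeds, 14 shared genes were counted and 1 of them had a common fragment. The lists differ in length, and no test was made of the overlap. Over the 354 genes of WT and HM together, 303 were joined to 1 of the 6 strands, 44 to 2 and 7 to 3.

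**Figure D5:**
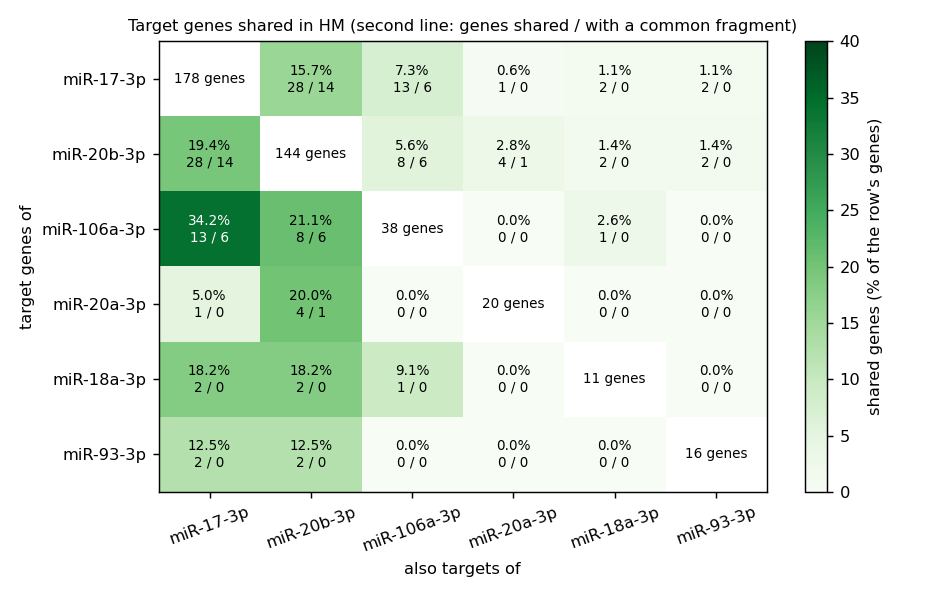
Target genes in HM shared between the strands, as a share of the genes of the strand in the row (colour and first line, %), with the number shared and the number with a common fragment below it and the length of each list on the diagonal. The shares with most common fragments lie among miR-17-3p, miR-106a-3p and miR-20b-3p.

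The 7 genes joined to 3 strands were Atpif1, Celf1, Kif5c, Pgam1, Ptar1, Tfrc and Tnpo1. Kif5c, for a kinesin heavy chain, and Pgam1, for a glycolytic mutase, had 3 and 4 reads of the 3 strands with 1 seed, all with the seed match. The reads of Kif5c were all from HM replicate 2. Pgam1 also had 17 reads of other miRNAs in WT and 36 in HM.
Pgam1, joined to miR-17-3p: cagttgtagCTGCAGatg
Pgam1, joined to miR-106a-3p: agttgtagCTGCAGatgggggcctg
Tfrc, for the transferrin receptor, had 3 reads of which 0 held a match, and Celf1, for an RNA-binding splicing regulator, and Tnpo1, for a nuclear import receptor, had 1 matched read each of 4 and 5. Ptar1 had 9 reads, 0 with a seed match, and its fragments of miR-17-3p and miR-20b-3p also held ACTGCA.

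It was then asked whether the passengers reached genes that the 5p guides of the same hairpins had held in WT. Those 6 guides had 1846 WT reads on 671 genes, and 77 of the 351 passenger genes (21.9%, or 11.5% of the guides' genes) were among them. Genes joined in HM to all other 3p-miRNAs were among them in 17.8% of 2215 cases. Library by library the shares were 16.7%, 25.4% and 19.4% for the passengers and 22.7%, 19.8% and 22.0% for the other 3p-miRNAs, whose ranges overlapped (20.5% ± 4.50 and 21.5% ± 1.52, SD, n = 3 each). Taken strand by strand, 37 other 3p-miRNAs had between 5.56% and 44.4% of their genes on this list. Restricted to the guide of the same hairpin, 40 of 407 pairs of a strand and a gene (9.83%) had been held by it in WT.

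On 6 of the 77 common genes a passenger in HM and a guide in WT had been joined to fragments with at least 15 bases in common. Nufip2 had 7, 5 and 0 reads of the 5p guides in WT and 0 in HM, beside its 9 reads of miR-17-3p in HM. Kif5c had 3, 4 and 0 reads of the guides in WT and 0 in HM. Akap13 had 2, 3 and 0 reads of them in WT and was one of the 6 with a common fragment. Some textbook targets of the 5p guides were also looked at. Mcl1, for an anti-apoptotic BCL2 family protein, had 1 read of miR-20b-3p, and E2f1, Ccnd1 and Fjx1 had 0 reads of the passengers.

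Of the 351 passenger genes, 193 (55.0%) already had a WT hybrid with a miRNA outside the 6 strands, and for genes of other 3p-miRNAs this was 52.1%. Library by library the order was not the same, with 52.8%, 57.6% and 55.0% for the passengers and 68.2%, 56.8% and 63.5% for the other 3p-miRNAs. Where other miRNAs had hybrids with a passenger gene in any library (256 genes), 57 (22.3%) shared a fragment of at least 15 bases with them.

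Lastly, the hybrids of all other miRNAs on the passenger genes were compared between genotypes, with the reads of the 6 strands left out. Of 74 passenger genes with at least 10 such reads, 7 were called (9.46%), 3 higher and 4 lower in HM, where 17.3% of all 330 genes tested were called (6.06% higher and 11.2% lower). These 74 genes had a median log2 fold change of 0.31, beside 0.30 for all genes tested. Il17rd, an antagonist of FGF signalling, went from 12, 11 and 11 such reads to 2, 4 and 2 (log2 fold change -2.68, SE 0.57, edgeR adjusted p = 1.16e-04). Tmem64, Yy2, for a zinc finger transcription factor, and Pank3, for a pantothenate kinase, were also lower (log2 fold changes -2.36, -3.47 and -1.51). Klhl11 (3.10), Plekhm1 (3.07), for an adaptor of lysosome fusion, and Il6st (1.54), for the shared receptor subunit gp130, were higher. The 7 genes had 1 or 2 reads of the passengers each. The other miRNAs include the 5p guides of the 6 hairpins, which had 32 reads on Il17rd in WT and 2 in HM. On Tmem64 the guides had 16 and 2 reads, on Pank3 11 and 0, and on Yy2 and Il6st 2 and 0 each. All miRNAs outside the 6 strands had 8, 6 and 3 WT reads on Tmem64, 10, 11 and 6 on Pank3 and 2, 7 and 1 on Yy2. The part of the guides in these calls was not tested. With 3p totals as library size 12 of the 74 were called, 0 higher and 12 lower, the median of all genes tested moved to -0.72, and Klhl11, Plekhm1 and Il6st lost their calls (log2 fold changes 2.13, 2.10 and 0.51, edgeR adjusted p = 0.0846, 0.0917 and 0.582). DESeq2 called 1 of the 74, and 2 were called without WT replicate 2, 3 without HM replicate 3, and 4 without WT replicate 1 or HM replicate 2. Hybrids of a gene also follow the amount of its mRNA, and fewer cells with the mRNA and less of it per cell cannot be told apart in such libraries.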

How the data were processed

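AGO2 CLASH was done by the authors in 3 WT and 3 HM biological replicates of P19 cells. They named the miRNA part with QuagmiR, mapped the target part to 3′ UTRs of mouse coding genes with Bowtie2 and kept combinations predicted by TargetScan; the genome build, the versions of Bowtie2 and QuagmiR and the handling of PCR copies are not given in the sources used here. The deposited table holds raw read counts per distinct hybrid sequence. Members and gene lists were chosen with earlier results of these data known.

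Reads were summed per library, miRNA and gene. Tables of miRNAs, pairs and genes (at least 10 reads) were tested with edgeR 4.0.16 in R 4.3.3, with 3p totals as library size for miRNAs and pairs and with totals without member reads for genes; DESeq2 1.42.0 was an alternative. A strand at 0 in WT was bounded against 3 reads per library. 3p shares were compared by two-sided exact permutation tests (scipy 1.17.1), intervals are exact Clopper-Pearson at 95%, and duplexes were predicted with ViennaRNA 2.7.2 on the sequenced parts, without undetermined bases. Named targets were, for each strand, the 5 with most HM reads among genes seen in at least 2 HM libraries (ties by libraries, then symbol), genes joined to 3 or more strands, fixed lists of reported targets and genes called with other miRNAs. Genes were named as deposited; 325 of the 354 matched a current RefSeq symbol and 19 a synonym. Tested on simulated counts, the scripts recovered 16 of 23 miRNAs changed 4-fold with 0 false calls among 94, 15 of 35 pairs with 1 among 140 and 32 of 82 genes with 0 among 330. The simulation used rates pooled over WT and HM and a fixed spread that was not estimated from these libraries. Its figures may therefore not carry over to the real counts. A result on 1 gene of the fixed lists is not reported here.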

Additional observations from a re-analysis of the deposited data

How the results depend on the processing

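The 6 strands were higher in HM under every scaling, filter and library left out with which they were tested; 6 were called with 3p totals, TMM, totals of all hybrids and distinct sequences counted once, and 4 with DESeq2, with a minimum of 20 reads (4 tested) and with the replicate block, and between 4 and 6 with a library left out. The labels do not say whether equal replicate numbers pair a WT with an HM library. Deviations from the group means correlated weakly between them (0.115, -0.0489 and 0.0821 over 94 miRNAs). At such low counts this cannot show that the libraries were unpaired. With the block miR-18a-3p and miR-93-3p had log2 fold changes of 4.95 and 4.86 (edgeR adjusted p = 0.0716 and 0.0893). Pairs called numbered 1 with totals of all hybrids as library size, and 0 with TMM, DESeq2 or the block. Without any 1 of the HM libraries no passenger pair reached 10 reads, so none could be called. Passenger genes called with other miRNAs numbered 12 with 3p totals, 3 with no minimum of reads, 1 with DESeq2 and between 2 and 7 with a library left out. The 7 named genes kept their direction under each alternative in which they were tested (Yy2 was not tested with DESeq2, with a minimum of 20 reads or without WT replicate 1 or 2), but each of the 7 except Il17rd lost its call under at least 1 of them. Genes gained were 75 with at least 2 HM reads, 55 in at least 2 HM libraries, 122 after thinning and 175 to 347 with a library left out, the lowest without HM replicate 2. The seed share was 12.02% with a 7-nt match. The share of passenger genes held by the guides in WT was 9.83% for the guide of the same hairpin, 13.7% with at least 2 WT reads and 16.8% to 23.5% with a library left out, the lowest without WT replicate 2. The 3p share of each hairpin was higher in HM in every setting tried. The causes of these differences were not tested. Depth limits the pairs most, since 2 of the 407 passenger pairs reached 10 reads.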

Other observations

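Gene groups among the 351 passenger genes were counted from lists written with earlier results known, beside the 2215 genes joined in HM to other 3p-miRNAs, with no test. Genes whose symbols mark ubiquitin enzymes and adaptors made up 20 of the passenger genes (5.70%) and 69 of the others (3.12%), among them Rnf144a, Otud6b and Trim71. Chromatin regulators on a list of 97 numbered 9 (2.56%) and 42 (1.90%), with Tet2, Tet3, Jarid2 and Kmt2c among the 9. Zinc finger genes numbered 10 (2.85%) and 66 (2.98%), and solute carriers 3 (0.855%) and 46 (2.08%).

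Of 16 genes of the silencing machinery, 10 were seen in the table, and all 10 were joined to other 3p-miRNAs in HM (0.451% of their genes). Dicer1, Ago1 and Cnot6 were joined to the passengers (0.855%). Dicer1 itself, the edited gene of the HM line, had 3 reads of miR-17-3p and 1 of miR-20b-3p, all in HM replicate 2, on a stretch with the seed match in capitals.
Dicer1, joined to miR-17-3p: cagacgccacattgtgCTGCAGagag
Dicer1, joined to miR-20b-3p: tcgccacattgtgCTGCAGagag
These reads came from 1 library, and no other HM library had a read of the 6 strands on Dicer1.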
